A study of Homo sapiens with 45 samples.

Results

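JCHAIN, the gene of the joining (J) chain of antibodies, was the most variable of the 15698 genes in a normalised RNAseq table of 45 libraries from HCT116-VR cells. It was selected on its s.d. (n - 1) of the log2 values over the libraries, the largest of any row. The choice rests on that spread, so the levels of JCHAIN are given as a description and with no test.

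The libraries were made from HCT116-VR, a vorinostat-resistant line derived from the colorectal carcinoma line HCT116. The cells were reverse transfected with lipid alone (mock) or with 1 of 14 siRNA pools (Dharmacon siGENOME SMARTpools) at 40 nM, and RNA was taken after 48 h. The pools targeted BEGAIN, CCNK, CDK10, DPPA5, EIF3L, GLI1, JAK2, NFYA, POLR2D, PSMD13, RGS18, SAP130, TGM5 and TOX4, and every condition had 3 libraries from independent biological experiments. All of the cells, mock included, carried the resistance, and all came from this 1 line, so the libraries say nothing of other cells.

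A sample list in the study's supplement pairs the library numbers with conditions, but the siRNA targets did not follow it. Libraries were therefore described in the 15 sets of 3 adjacent columns of the table, numbered by place from 1 to 15. For 10 of the 11 listed targets, the 3 libraries with the lowest level were the 3 of a single set. The exception was BEGAIN, with a median of only 22 reads. Over the 2197 genes with a s.d. of at least 0.75, the 2 nearest libraries were the other members of the set for 43 of 45 libraries. Set 8 (libraries 5, 40 and 23) served as the reference. It was taken to be mock by inference only, no label gives it, and no other set was given a condition.

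The J chain is a small secreted protein that links the units of polymeric IgA and IgM. Polymers that carry it are bound by the polymeric immunoglobulin receptor (PIGR), which moves them across the gut epithelium. Plasma cells, the antibody-secreting cells of the B lineage, are its best known source. In the gut these cells lie in the lamina propria beneath the epithelium from which colorectal carcinoma lines derive.

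JCHAIN (ENSG00000132465) lies on the minus strand of chromosome 4 at 71521258-71547534 (GRCh37). Its annotated exons merge into 8 blocks of 1546 bp in all, and none is overlapped by an exon of another gene in the table. Genes outside the table were not checked for overlap. The 250 bases before its RefSeq start are shown as the identity of the gene under study, beside those of CD74, the gene that followed it most closely. The RefSeq starts were not compared with the GRCh37 coordinates given here, which come from another annotation. CD74 encodes the invariant chain, which guides HLA class II molecules and fills their peptide groove. Both sequences are from RefSeq (GRCh38.p14, minus strand, 5′ to 3′). They cover chr4:70666509-70666758 for JCHAIN and chr5:150412911-150413160 for CD74. Capitals mark any match, on either strand, to CCAAT (the box bound by the NF-Y complex, of which NFYA is a subunit), ATGCAAAT (the octamer of immunoglobulin promoters) or TATAAA (the TATA box).
JCHAIN: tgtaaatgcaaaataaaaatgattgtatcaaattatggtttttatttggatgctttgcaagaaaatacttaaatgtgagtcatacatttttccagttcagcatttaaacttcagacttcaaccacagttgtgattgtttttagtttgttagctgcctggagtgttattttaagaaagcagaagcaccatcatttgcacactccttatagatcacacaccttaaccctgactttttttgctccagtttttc
CD74: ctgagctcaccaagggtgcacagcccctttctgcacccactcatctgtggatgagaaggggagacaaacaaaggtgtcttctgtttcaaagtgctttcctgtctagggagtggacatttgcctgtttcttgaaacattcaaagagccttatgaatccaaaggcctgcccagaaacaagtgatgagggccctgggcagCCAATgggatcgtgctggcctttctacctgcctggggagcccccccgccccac

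None of these letters was in the JCHAIN window. The CD74 window held 1 CCAAT, whose first base lies at -53 from the start on the strand shown. Among 35116 promoter windows of this length, 32% held CCAAT, 1.63% held ATGCAAAT and 10.7% held TATAAA. A match is a description of the letters only, as is the lack of one.

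The table holds log2 CPM (reads of a gene scaled by the size of its library), where 0.5 reads went into every count before the log, and the whole reads behind the values could be recovered. Between 7569592 and 21149597 reads per library fell on the listed genes. At 0 reads the log2 value is between -5.30 and -3.88. At 3 reads, taken here as a rough upper bound for a count of 0, it is between -2.50 and -1.07. Every listed gene had at least 10 reads in its highest library. Genes outside the table are not analysed here. The epithelial markers EPCAM and KRT8, a keratin of simple epithelia, were high throughout. EPCAM had 2459 to 9496 reads and KRT8 had 7665 to 29131 reads over the 37 libraries numbered 9 or above. In libraries 1 to 8 they had 2922 to 6100 and 8332 to 22400 reads. CDX2, another such marker, had a median of 233 reads. KRT20, CDX1, VIL1, LGALS4 and CEACAM5, also looked up as epithelial markers, were not in the table.

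JCHAIN had reads almost only in the libraries numbered 1 to 8. Library 1 had 37 reads, library 2 had 44, library 3 had 32 and library 4 had 46. Library 5 had 50 reads, library 6 had 65, library 7 had 57 and library 8 had 48. Of the other 37 libraries, 32 had 0 reads, library 19 had 4, library 16 had 2, and libraries 13, 31 and 39 had 1 each. The lowest of libraries 1 to 8 stood 3.22 log2 units above the highest of the others, with no overlap.

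In all, 379 of the 388 JCHAIN reads (97.7%) fell in libraries 1 to 8. These 8 libraries were not the deepest. They held 10233062 to 14684828 reads on listed genes, which lies within the range of the other 37. They were noticed through JCHAIN itself, so the comparison of libraries 1 to 8 with the rest is given throughout with no test. What the numbers stand for (a day, a plate or a run) is not given in the sources used here. Whether anything that goes with the numbers contributed to the reads was not tested.

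**Figure D1:**
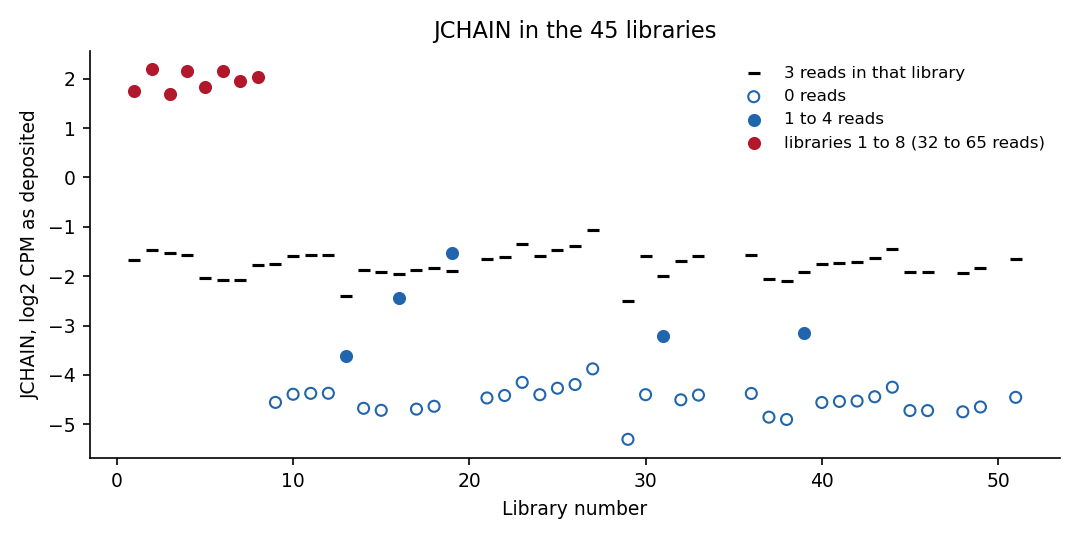
Deposited log2 CPM of JCHAIN (vertical axis) in each of the 45 libraries by library number (horizontal axis), with a dash at the value that 3 reads would have in that library. Libraries 1 to 8 lie between 1.69 and 2.19, and the others at -1.53 or below.

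Among libraries 1 to 8, which were noticed for their high values, the level varied little. The log2 values ran from 1.69 in library 3 to 2.19 in library 2, with a mean of 1.97 ± 0.20 (SD, n = 8). On the linear scale the level was 3.17 to 4.51 CPM, with a mean of 3.90 ± 0.525 CPM (SD, n = 8). The gene's s.d. within these 8 libraries was lower than the median s.d. of all genes there, 0.20 against 0.32, and ranked 12625 of 15698.

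Pooled over libraries, the level was 3.90 CPM (95% Poisson interval 3.51 to 4.31) in libraries 1 to 8 and 0.0203 CPM (0.00926 to 0.0384) in the other 37. The ratio of these pooled levels was 192 (exact binomial 95% interval 100 to 424). All such intervals cover counting error only. They do not cover the choice of libraries 1 to 8 by their high JCHAIN values, so the interval of a ratio is no test. The 9 reads outside libraries 1 to 8 are spread over 5 libraries, and 6 of these reads were in set 10 (libraries 16 and 19).

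The spread of JCHAIN over the 45 libraries was 2.50 log2 units, against a median of 0.40 over all genes. Without libraries 1 to 8 it was 0.70, which placed JCHAIN at rank 2734 of 15698. By the median absolute deviation, which a minority of libraries moves little, the spread was 0.28 and the rank 5894. The rank by s.d. stayed at 1 with 2 reads added to each count in place of 0.5, but was 40 with 10 reads added, where the siRNA target EIF3L came first with a s.d. of 1.54.

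**Figure D2:**
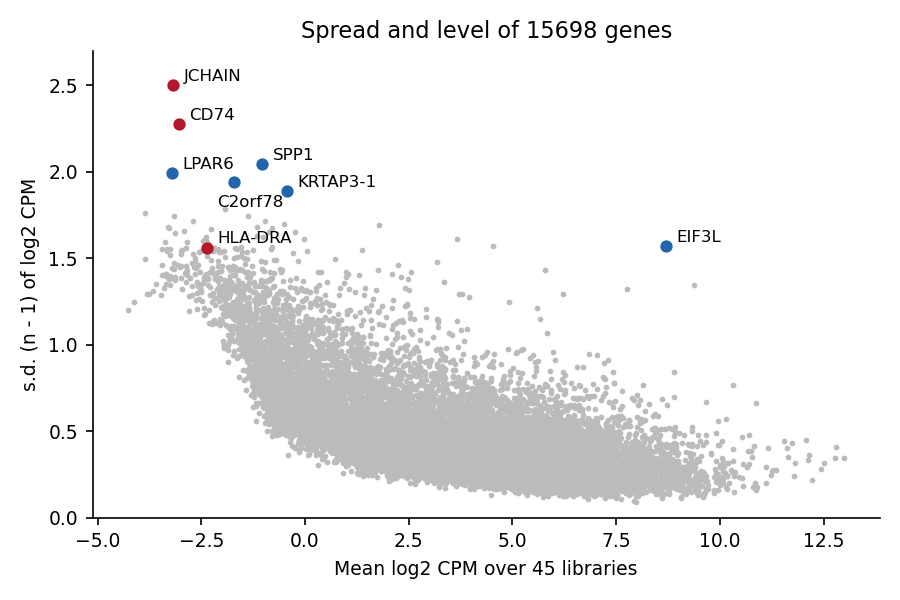
The s.d. of log2 CPM over 45 libraries (vertical axis) against the mean log2 CPM (horizontal axis), with 1 point a gene and 8 genes named. JCHAIN lies highest at 2.50, CD74 next at 2.28, and both have a mean log2 CPM near -3.

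Libraries 1 to 8 were scattered over 6 of the 15 sets. Set 5 (libraries 6, 7 and 8) held 3 of them, and sets 1, 6, 8, 11 and 12 held exactly 1 each. The remaining 9 sets held none, and in 6 of these every library had 0 JCHAIN reads. Set 5 had a mean log2 value of 2.04 ± 0.10 (SD, n = 3) from 65, 57 and 48 reads. EIF3L, a subunit of the translation initiation factor eIF3, had its 3 lowest libraries in set 5, at 102 to 123 reads against a median of 6113 over all libraries. For set 5 taken alone, the low EIF3L level and the library numbers cannot be told apart.

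In each of the 5 sets with a single such library, that library alone carried the JCHAIN level. Set 1 had 37 reads in library 1 beside 0 and 1 read, and its mean was -2.26 ± 3.53 (SD, n = 3). The reference set had 50 reads in library 5 and 0 in libraries 40 and 23, with a mean of -2.30 ± 3.57. Sets 6, 11 and 12 had 32, 44 and 46 reads in 1 library and 0 in the other two, with means of -2.29, -2.31 and -2.31. Within each of these sets the s.d. was larger than the distance from its mean to that of any of the other four.

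Set 10 came next with 0, 2 and 4 reads and a mean of -2.74 ± 1.38. Set 15 followed at -4.15, and the last 7 means, from -4.33 in set 9 to -4.70 in set 7, rest on 0 or 1 read per library. Among these 8 sets the order of the means follows library size and single reads, and no order of levels can be read from it. Without libraries 1 to 8, the means of sets 1, 6, 8, 11 and 12 were between -4.56 and -4.26, which is in the range of the sets with no such library.

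**Figure D3:**
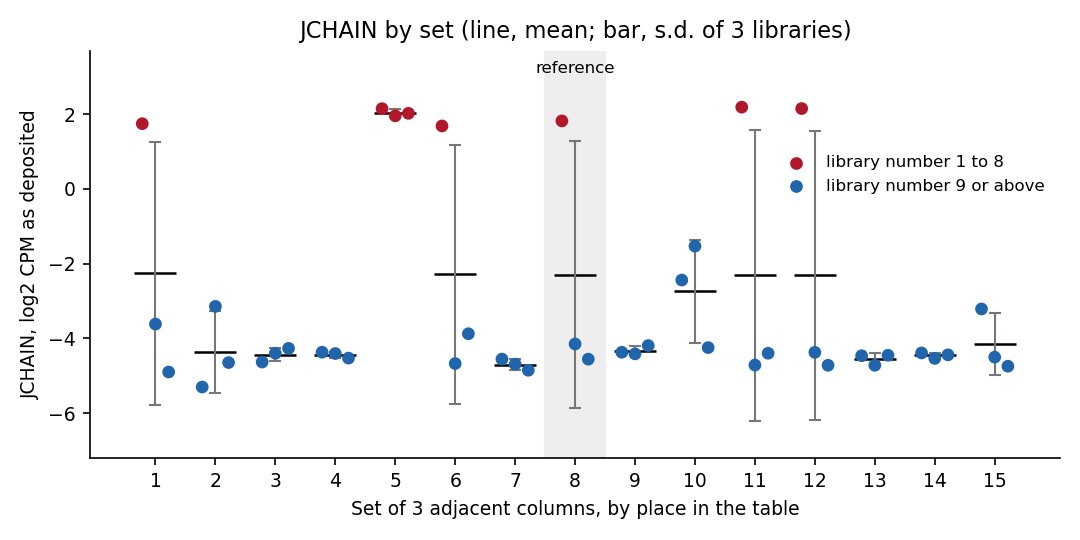
Deposited log2 CPM of JCHAIN (vertical axis) for the 3 libraries of each set (horizontal axis, place in the table), with the mean as a line and the s.d. as a bar. In sets 1, 6, 8, 11 and 12 a single library of the numbers 1 to 8 lies above 1.6 and the other two lie below -3.5.

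The difference from the reference set therefore turned on library 5. With all libraries, the difference (set minus reference, log2 scale) was 4.34 for set 5, between -0.02 and 0.04 for sets 1, 6, 11 and 12, -0.44 for set 10 and between -2.41 and -1.86 for the other 8 sets. Without library 5, the difference was 6.40 for set 5, between 2.04 and 2.10 for sets 1, 6, 11 and 12, 1.61 for set 10 and between -0.35 and 0.20 for the other 8 sets. The pooled s.d. within sets was 2.18, so apart from set 5 the differences were about as large as the spread between libraries of a set, or smaller. These are fitted values that depend on the 0.5 reads added to each count.

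Most genes varied mainly between sets, and JCHAIN less so. Differences between the 15 sets made up 48.1% of the variance of JCHAIN, against a median of 87.8% over all genes. JCHAIN was 690th from the lowest of 15698 genes by that share. Differences between libraries 1 to 8 and the others made up 93.5% of its variance, against a median of 1.25%. This was the largest such share, followed by CD74 at 85.1% and HLA-DRA at 53.7%, and only these 3 genes were above 50%. Libraries 1 to 8 were noticed through JCHAIN, so its own share is no finding. CD74 and HLA-DRA reached 10 reads only in these libraries, so their shares are a description only. The mean s.d. within a triplet was 1.50 for the sets of adjacent columns and 2.10 for the triplicates of the sample list.

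**Figure D4:**
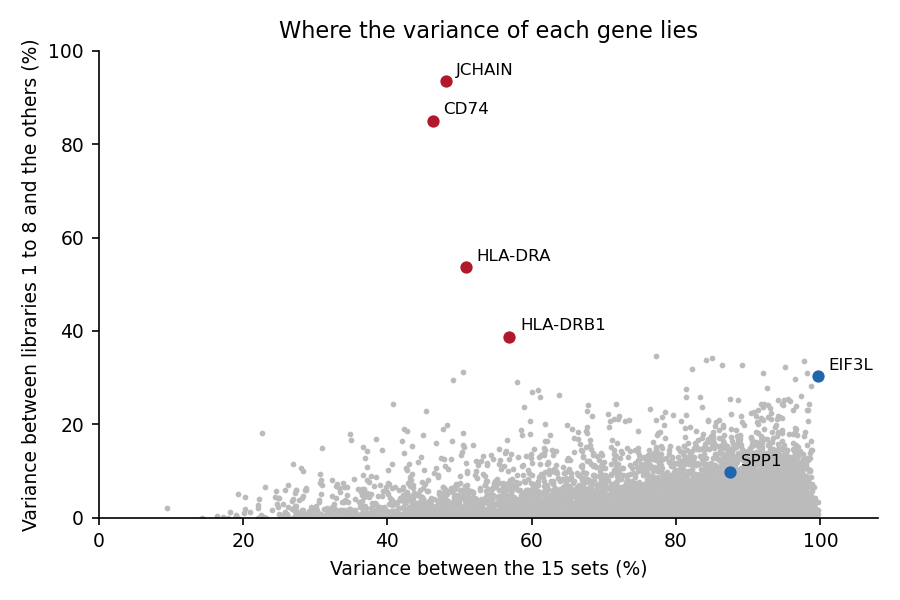
For each gene, the share of variance between libraries 1 to 8 and the other 37 (vertical axis, %) against the share between the 15 sets (horizontal axis, %). JCHAIN (93.5%), CD74 (85.1%), HLA-DRA (53.7%) and HLA-DRB1 (38.8%) lie above the other genes on the vertical axis.

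The next 5 genes by s.d. were CD74 (2.28), SPP1 (2.05), LPAR6 (1.99), C2orf78 (1.94) and KRTAP3-1 (1.89). Apart from CD74, these varied by set. SPP1, which encodes the secreted phosphoprotein osteopontin, had 218 to 296 reads in set 11 and at most 20 in any other library. LPAR6, a receptor for lysophosphatidic acid, had 53 to 161 reads in set 10 and at most 4 elsewhere. C2orf78 had 53 to 80 reads in set 10 and at most 19 elsewhere, and the keratin-associated gene KRTAP3-1 had 62 to 109 reads in set 14 with set 6 only 0.24 log2 units below. Between 80.0% and 90.9% of the variance of these 4 genes lay between sets, and at most 9.83% between libraries 1 to 8 and the others.

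HLA class II molecules present peptides to CD4+ T cells and are built from an alpha chain, such as that of HLA-DRA, and a beta chain, such as that of HLA-DRB1. B cells express them together with CD74, and other cells can be induced to do so. Only 3 of the 15698 genes (0.0191%), namely JCHAIN, CD74 and HLA-DRA, had a higher log2 value in every one of libraries 1 to 8 than in any of the other 37. No gene (0.0%) was lower in all 8. In the gene next to these the gap was -0.26 log2 units, which is an overlap. JCHAIN chose the libraries, so for it this count is no finding. CD74 and HLA-DRA had at most 3 and 6 reads in the other 37, while every listed gene had at least 10 in its highest library. Both reached that level only in libraries 1 to 8, so for them too the count is a description only.

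CD74 (ENSG00000019582, chromosome 5 at 149781200-149792532, GRCh37) had 21 reads in library 1, 28 in library 2, 23 in library 3 and 39 in library 4. It had 29 reads in library 5, 45 in library 6, 40 in library 7 and 38 in library 8. In the other 37 libraries it had 0 reads in 27 and at most 3 in the rest. Libraries 1 to 8 thus held 263 of its 280 reads (93.9%), and its mean log2 value was 1.43 ± 0.33 (SD, n = 8) there and -4.00 ± 0.96 (SD, n = 37) in the others.

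HLA-DRA (ENSG00000204287, chromosome 6 at 32407655-32412823, GRCh37) had 12, 9, 9 and 9 reads in libraries 1 to 4 and 19, 11, 15 and 17 reads in libraries 5 to 8. The other libraries had 0 to 6 reads, with 0 in 11 of them. The groups did not overlap on the log2 scale, with a gap of 0.79. Libraries 1 to 8 held 101 of its 164 reads (61.6%), so that unlike JCHAIN it had a level outside them, at a pooled ratio of 7.32 (5.29 to 10.2, exact binomial 95% interval).

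HLA-DRB1 had 6, 2 and 2 reads in libraries 1 to 3, 12 and 13 in libraries 4 and 5, and 12, 14 and 12 in libraries 6 to 8, against 0 to 6 in the others. Libraries 1, 2 and 3 lay among the others on the log2 scale, so the groups overlapped. This gene (ENSG00000196126, chromosome 6 at 32545679-32557625, GRCh37) shares near-identical sequence with other DRB genes, and its count is uncertain for that reason. Of 12 class II genes looked up after these values were seen, 3 were in the table. The third, HLA-DMA, which loads peptides onto class II molecules, had 14 to 48 reads in libraries 1 to 8 and 8 to 45 in the others, a broad overlap.

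**Figure D5:**
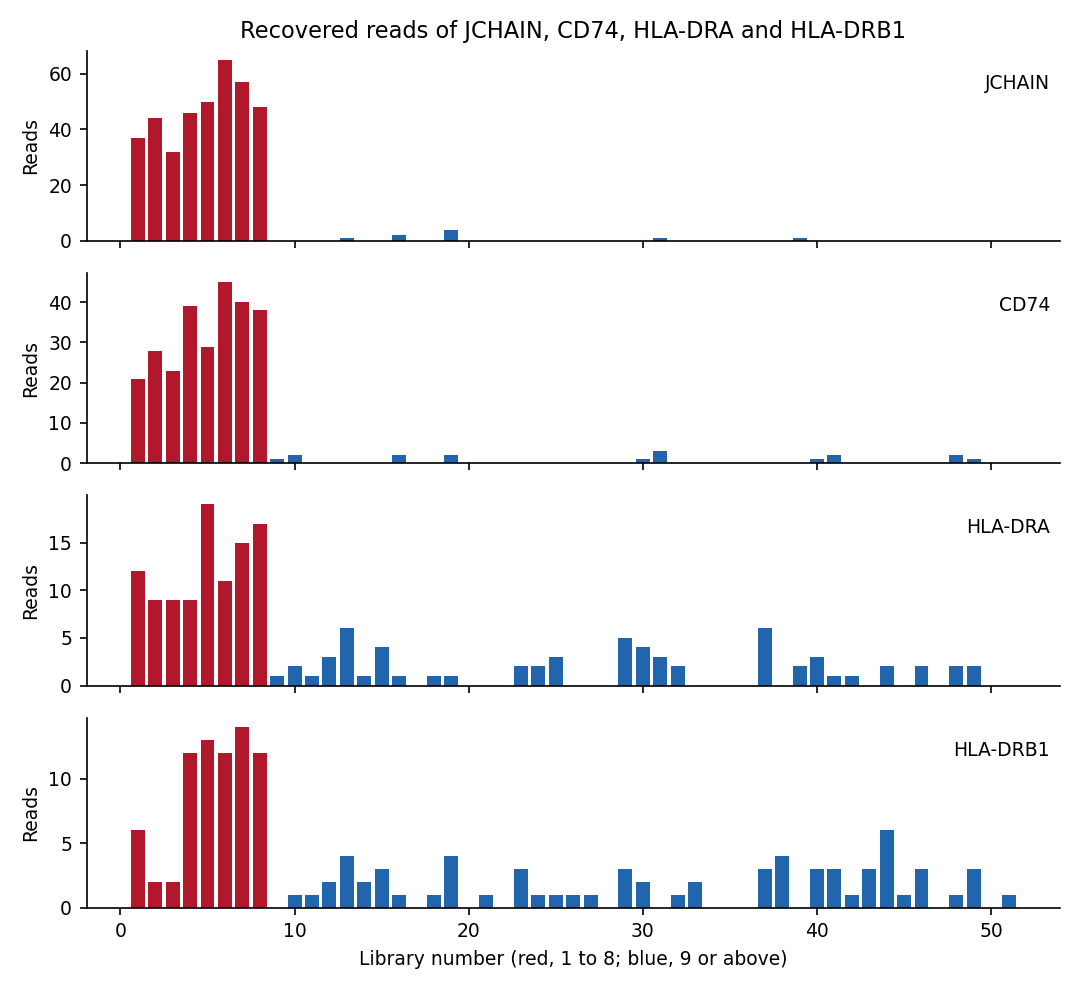
Recovered reads (vertical axes, linear, from 0) of JCHAIN, CD74, HLA-DRA and HLA-DRB1 by library number (horizontal axis), with libraries 1 to 8 in red and the other 37 in blue. JCHAIN and CD74 fall from 32 or more and 21 or more reads in libraries 1 to 8 to at most 4 and 3 in the others, while HLA-DRA and HLA-DRB1 keep up to 6 reads.

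Per length of merged exons, JCHAIN was the most abundant of these genes in libraries 1 to 8. Its pooled level there was 2.52 RPKM (CPM per 1 kb of exon, 95% Poisson interval 2.27 to 2.79), against 0.835 (0.680 to 1.01) for HLA-DRA, 0.597 (0.527 to 0.674) for CD74 and 0.243 (0.191 to 0.306) for HLA-DRB1. The merged lengths were 1546, 1244, 4526 and 3083 bp in the same order. They join the exons of all annotated transcripts, so these levels depend on the annotation, which the intervals do not cover. In reads, CD74 (263) stood above HLA-DRA (101). There were 0.57 to 0.85 CD74 reads per JCHAIN read in the 8 libraries (median 0.70). This proportion rests on 21 to 45 CD74 and 32 to 65 JCHAIN reads per library, and no interval was set on it. The proportion for HLA-DRA was 0.17 to 0.38 (median 0.27), and for HLA-DRB1 it was 0.045 to 0.26.

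Likeness to JCHAIN was measured by the Pearson correlation of log2 values over the 45 libraries, among 15629 genes with at least 10 reads in at least 3 libraries. The libraries fall into 2 separate clusters by JCHAIN, so this r measures mainly how well a gene separates libraries 1 to 8 from the rest. CD74, HLA-DRA and HLA-DRB1 had at most 3, 6 and 6 reads outside libraries 1 to 8. They passed the filter on reads only through those libraries, so their r is a description only. CD74 was most alike (r = 0.93), then HLA-DRA (0.71), HLA-DRB1 (0.59), IFIT1 (0.58) and ARHGDIB (0.50), and these 5 were the only genes above 0.5. The median over all genes was 0.01. The next were SYTL5, EPHA10, PDE3B, ANGEL2 and VPS41, at 0.48 to 0.49.

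CD74 did not keep its first place within either cluster. Within libraries 1 to 8 (n = 8) the correlation of CD74 with JCHAIN was 0.85, which was 114th among all genes. Within the other 37, where most values are 0 reads, it was 0.42, which was 750th. HLA-DRA had -0.35 and 0.03 in the same comparisons, and HLA-DRB1 had 0.25 and -0.08. The values of a library share its depth and its scaling. Where JCHAIN and CD74 both had 0 reads, their log2 values were identical and set by library size. The 0.42 of CD74 is in part built in for that reason. Within libraries 1 to 8, the Poisson intervals of the JCHAIN level overlapped for all 28 pairs of libraries. Differences in JCHAIN beyond counting error were thus not shown there, so the 0.85 of CD74 is a description only.

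Set 5 carried part of the likeness of the lower ranked genes. IFIT1, an interferon-induced RNA-binding protein, had 44 to 86 reads in set 5 and 5 to 35 in all other libraries, and its r fell to 0.38 without set 5. ARHGDIB had 36 to 46 reads in set 5 and 2 to 33 elsewhere, with r again 0.38 without it. Without set 5, CD74 was at 0.90, HLA-DRA at 0.64 and HLA-DRB1 at 0.45. The last 5 of the 10 genes most alike had 0.21 to 0.34.

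The 5 genes most opposed to JCHAIN had r of -0.65 to -0.59. They were RPL22P1, a pseudogene of a ribosomal protein gene, and 4 identifiers with no symbol, of which ENSG00000240652 was lowest. Their mean log2 values in libraries 1 to 8 minus those in the others were -0.40 to -0.22, and without set 5 their r was -0.47 to -0.39. Their r was -0.44 to -0.34 within libraries 1 to 8 and -0.53 to -0.35 within the other 37. In the other 37 most JCHAIN values are 0 reads and follow library size. Reads of pseudogenes can be split with those of near-identical copies, so the values of these 5 genes are uncertain.

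Lists of genes of the JCHAIN pathway were compared between libraries 1 to 8 and the others, again with no test. Over all genes, 39 of 15698 (0.248%) were higher by at least 1 log2 unit in libraries 1 to 8, and 22 (0.140%) were lower by as much. The median difference (libraries 1 to 8 minus the others) over all genes was 0.02.

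Of 21 antibody genes and antibody receptors, only FCMR, the receptor for the constant part of IgM, was in the table. PIGR, MZB1 (a chaperone that aids antibody assembly in plasma cells) and the heavy and light chain genes are not analysed here. FCMR had 0 to 4 reads in libraries 1 to 8 and a median of 2 reads in the others. Its log2 difference was -0.34.

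Of 18 B and plasma cell markers, 5 were in the table, and CD74 was the only one higher by at least 1 log2 unit in libraries 1 to 8. SDC1, a surface proteoglycan of plasma cells that epithelia also express, had 215 to 1104 reads in libraries 1 to 8 and 215 to 1484 in the others. CR2 (a complement receptor of B cells), CD22 (a sialic acid-binding receptor of B cells) and TXNDC5 (a disulphide isomerase) had differences of 0.25, -0.03 and -0.30, with overlapping ranges. The 5 markers summed to 44.2 to 105 CPM in libraries 1 to 8 and 43.1 to 181 CPM in the others. Without CD74 the sums were 41.9 to 103 and 43.1 to 181. The defining B cell markers MS4A1, CD79A and CD79B are not analysed here, so that the part of such cells in the JCHAIN reads was not tested. In bulk libraries, more cells with a transcript and more transcript per cell cannot be told apart.

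Of 18 transcription factors and cofactors that control JCHAIN or plasma cell fate, 11 were in the table, with differences of -0.45 (MEF2B) to 0.38 (MEF2C) and a median of -0.09. PRDM1, the factor that drives plasma cell differentiation, had 1 to 10 reads in libraries 1 to 8 and a difference of 0.20. XBP1, which expands the secretory apparatus, had 1395 to 2117 reads there and a difference of -0.01. All 25 genes of secretory folding were in the table, with differences of -0.57 to 0.07 and a median of -0.18. The epithelial list had 7 of its 12 genes in the table. EPCAM, CDH1, KRT8, KRT18, KRT19 and CDX2 had differences of -0.27 (CDH1) to 0.08 (KRT19), and VIM, a mesenchymal gene held in that list as a contrast, had 0.25. The ranges of libraries 1 to 8 and the others overlapped for all of these genes.

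The same lists were compared between each of the 14 other sets and the reference set with limma, where a gene was called at a Benjamini-Hochberg adjusted p under 0.05 and a log2 difference of at least 1 in size. JCHAIN was left out. Over all genes, 14298 of 219716 gene and set pairs (6.51%) were called, 4592 (2.09%) as higher and 9706 (4.42%) as lower than the reference. The medians of all differences lay at -0.01. The lists were read against these shares, and all 14 comparisons share the 3 reference libraries.

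Regulators were called in 9 of 154 pairs (8 higher, 1 lower, median difference 0.06). In total this share, 5.84%, is near the 6.51% of all pairs, with more of the calls higher and fewer lower than over all genes. With the mean of all other sets as the reference the count was 14. MEF2C, a factor of the B and muscle lineages, rose in set 6 by 2.65 (SE 0.20, limma adjusted p = 1.03e-14), in set 7 by 1.36 and in set 1 by 1.12. BACH2, a repressor of plasma cell fate, was lower in set 6, with a difference of -1.41 (SE 0.24, limma adjusted p = 4.29e-06). Of all genes in set 6, 2.91% were called higher and 8.53% lower. The other 5 calls were in PRDM1 (sets 2, 7, 10 and 11) and MEF2B (set 10), named for the count although their medians were 3 and 4 reads. Of the sets with rises, sets 1, 6 and 11 had 38, 32 and 44 JCHAIN reads in all. Sets 2, 7 and 10 had 1, 0 and 6. Whether these rises go with JCHAIN was not tested.

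Secretory folding genes were called in 6 of 350 pairs (1.71%, against 6.51% of all pairs), with 3 higher, 3 lower and a median difference of 0.06. Of these, 4 were in set 10, where 9.3% of all genes were called higher and 8.26% lower. ERO1B, an oxidase that drives disulphide formation, rose there by 2.06 (SE 0.20), and DNAJB11, a cochaperone, by 1.15. LMAN1, a cargo receptor for glycoproteins, fell by 1.55 (SE 0.06) and HYOU1, a chaperone, fell by 1.16. CANX, the lectin chaperone calnexin, fell in set 1 by 1.14. All 5 had a limma adjusted p of 6.19e-12 or lower. DNAJB9 in set 6 was the sixth call.

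B and plasma cell markers were called in 11 of 70 pairs (3 higher, 8 lower, median difference -0.22), in 3 genes. This share was 15.7%, against 6.51% of all pairs. Of all genes, 11.1% were called lower in set 13, 8.53% in set 6 and 8.21% in set 2, where 2.69% were called higher. CD22, with a median of 10 reads, accounted for 6, from -3.53 in set 13 to 2.93 in set 2. CR2 differed by -1.71 to -1.17 in sets 2, 11, 13 and 14, and SDC1 fell in set 6 by 1.58 (SE 0.09, limma adjusted p = 4.07e-18). CD74 differed from the reference by 3.61 (SE 1.49) in set 5 and by -2.52 to 0.03 in the other sets, and as in JCHAIN the reference value rests on library 5. FCMR, the 1 antibody gene in the table, was called in 3 of 14 pairs (1 higher, 2 lower, median difference -0.66) at a median of 2 reads. That is 21.4% of its pairs.

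The epithelial list, with its contrast gene VIM included, was called in 2 of 98 pairs (2.04%, against 6.51% of all pairs). Both calls were lower, 1 of them in VIM (median difference of the list -0.14). KRT18, the keratin partner of KRT8, fell in set 10 by 1.10 (SE 0.06), and VIM, the intermediate filament protein of mesenchymal cells, fell in set 13 by 1.47 (SE 0.20). Of all genes, 8.26% were called lower in set 10 and 11.1% in set 13.

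Genes beside JCHAIN on the chromosome were also read. Of 26 annotated genes within 500 kb, 5 were in the table: UTP3, RUFY3, GRSF1, MOB1B and DCK. Their differences between libraries 1 to 8 and the others were -0.06 to 0.15, with overlapping ranges. UTP3, a factor of small ribosomal subunit assembly whose body lies 6.71 kb from that of JCHAIN, had 538 to 1137 reads in libraries 1 to 8 and 219 to 2435 in the others. In the limma comparison the neighbours were called in 2 of 70 pairs (2.86%, against 6.51% of all pairs), with 1 higher, 1 lower and a median difference of -0.04. Both were UTP3, which fell in set 4 by 1.53 (SE 0.08) and rose in set 10 by 1.36 (SE 0.08). Of all genes, 5.47% were called lower in set 4 and 9.3% higher in set 10. Set 4 had 0 JCHAIN reads and set 10 had 6.

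The siRNA targets were compared in the same way. Their log2 differences between libraries 1 to 8 and the others ran from -2.24 for EIF3L, whose 3 lowest libraries are 6, 7 and 8, to 0.48 for JAK2, a tyrosine kinase of cytokine receptors. The lowest level of each of TOX4, CCNK, JAK2, SAP130, CDK10, POLR2D and NFYA lay in a set with none of libraries 1 to 8. For PSMD13, a proteasome subunit, and GLI1, a transcription factor of the hedgehog pathway, it lay in sets 11 and 6, which each hold 1 of them. TGM5, RGS18 and DPPA5 are not analysed here.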

How the data were processed

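RNA from HCT116-VR cells was sequenced as 45 libraries. Per the labels, the authors used CASAVA 1.8.2, TopHat 1.4.1, HTSeq and limma with GRCh37, and the study's methods give Ensembl release 67. The deposited values are log2 CPM from limma's voom, which adds 0.5 reads to every count and divides by a scaled library size. How the listed genes were selected is not given in the sources used here.

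To recover reads, the minimum of each column was set to 0 reads, and 100% of values then lay within 0.001 of a whole number. Library totals bound the precision, and 3 reads were taken as a rough upper bound for a count of 0. Sets were compared with limma 3.58.1 (lmFit, eBayes with trend) in R 4.3.3, in a single model of the 45 libraries. The 15694 genes tested reached a log2 value of -1 in 3 or more libraries. The fit was tested on simulated data. Other steps used Python 3.11.15, numpy 2.4.6, pandas 2.3.3, scipy 1.17.1 and matplotlib 3.10.9. Symbols (for 15366 of 15698 identifiers) and coordinates came from GENCODE release 44, GRCh37. Promoter sequences of JCHAIN and CD74 matched by symbol.

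JCHAIN, the sets and the lists were chosen with earlier results of these data known. Genes named are JCHAIN, the next 5 by s.d., the 10 most and 5 least correlated with it, listed genes within 500 kb, the siRNA targets, PIGR, MZB1, and per list up to 5 called members with a median of at least 10 reads. Others are named for counts. The labels give 3 replicates per condition, and the study's methods describe 3 independent biological experiments. No label ties the libraries of a set to these experiments, so p-values measure only the spread between libraries of a set. Alternatives were other scalings, filters, weights, reference groups, added reads, correlations, a replicate block and leaving out libraries.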

Additional observations from a re-analysis of the deposited data

How the results depend on the processing

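The s.d. of JCHAIN was 1.75 with 2 reads added to each count, 0.977 with 10 reads added, 0.276 as the median absolute deviation and 0.701 without libraries 1 to 8. With 1 library left out at a time it was 2.39 to 2.53. The rank of JCHAIN by spread was 40 with 10 reads added, 5894 by the median absolute deviation, 5 over the means of sets and 2734 without libraries 1 to 8, and 1 with any single library left out. A rank among genes with a median of at least 10 reads could not be given, since the median of JCHAIN is 0. Among the 10 genes most like JCHAIN, 2 were in the 10 by Spearman correlation, 4 over means of sets, 3 without set 5, and 0 within libraries 1 to 8 or within the other libraries. Both of these within-cluster correlations, the analysis without libraries 1 to 8 and the term for library numbers were chosen after seeing the data. CD74 was first by Pearson, Spearman, means of sets and without set 5. Leaving out the single library of numbers 1 to 8 in a set moved its JCHAIN difference from the reference to -1.96 in set 1 (library 1), -1.98 in set 6 (library 3), -2.26 in set 11 (library 2) and -2.25 in set 12 (library 4).

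The lists together had 31 called gene and set pairs, and 28 to 32 with 1 library left out. All genes had 14298, and 13475 to 14523 with 1 library left out. With the adjusted p alone the counts were 316 and 83329. With the triplicates of the sample list limma called 0 pairs in the lists and 0 over all genes, where 5.95% and 4.73% of pairs had an unadjusted p under 0.05. Voom weights, no filter, median-centred libraries, the mean of the other sets as the reference and a term for libraries 1 to 8 kept both of these totals within 1.5 times. Of the single lists, the mean of the other sets as the reference moved the regulator calls from 9 to 14 and the epithelial calls from 2 to 1. The cause of these changes was not tested. With a replicate block from the numbers of the sample list, the counts were 29 and 14257, and no paired reading was made: residuals of libraries with the same number had a median correlation of -0.0062, and 2 of 15 sets held 1 library of each number.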
